A study of Homo sapiens with 8 samples.

Results

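PC3 cells that received a lentivirus carrying TRIB1 were compared with PC3 cells that received a lentivirus without an insert. PC3 is an established human line from a bone metastasis of prostate cancer, and the cells were kept at 37 °C in 5% CO2. Each of the 2 PC3 groups holds 2 libraries, prepared from TRIzol RNA with the NEB Ultra kit for RNA. The labels do not say whether the infected cells were a pool or a clone, nor whether replicates were separate cultures. The genes described are those with a mean of at least 1 TPM (a share of all transcripts, scaled by transcript length) in a PC3 group, 21938 of the 57905 in the table, of which 13666 are protein-coding. The same virus pair was used in DU145, a second prostate cancer line, which serves here only to show where the PC3 change differs.

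TRIB1 is a pseudokinase of the Tribbles family. It binds the ubiquitin ligase COP1 and presents substrates to it, with the C/EBP transcription factor CEBPA as the best known, and it also binds the kinase MEK1. COP1 has substrates of its own, among them JUN and ETS factors of the ETV family. C/EBP factors and NF-kB share many targets among inflammatory genes, in particular chemokines that attract neutrophils through the receptor CXCR2. PC3 cells are known for their high output of such cytokines and for an incomplete epithelial state with vimentin beside keratins.

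All levels below are TPM and all changes are log2 differences of TPM + 1, TRIB1 minus control, which understate the change of low genes. The test was limma across 25982 genes with Benjamini-Hochberg adjustment. A gene rose or fell at an adjusted p below 0.05, and it was called where the log2 change also passed 1 in size. In PC3, 1350 genes were called, 5.20% of those tested, with 656 higher (2.52%) and 694 lower (2.67%). By adjusted p alone 7.67% of the genes tested rose and 9.33% fell. In a fit of protein-coding genes alone 2455 of 14949 rose and 2818 fell. That fit, with its own scaling and adjustment, also passed more list members, such as 17 of 25 epithelial regulators higher, against 12 in the main fit. Its larger share is a background for list counts of that fit. The share of protein-coding genes that passed in the main fit was not worked out, so the main-fit list counts below lack an exact background. All 1350 called genes had both TRIB1 libraries on the same side of both controls. So did 60.2% of all genes measured, so a lack of overlap alone says little with 2 libraries a group. The median log2 change was -0.041 over the 21938 genes and -0.008 over the genes tested. Of the protein-coding genes 418 were called higher and 471 lower. Without TRIB1 library 2 only 445 genes were called lower and 740 higher (62.4% of calls higher, against 48.6% with all libraries). Without control library 1 the counts were 960 lower and 638 higher. Median-of-ratios scaling also turned the balance, to 759 higher and 646 lower (54.0% higher).

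**Figure D1:**
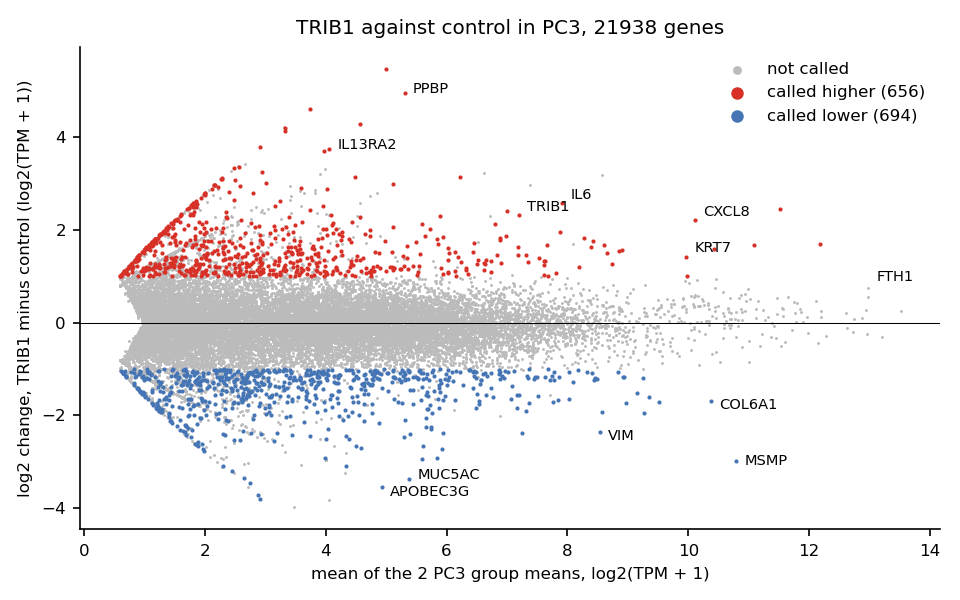
Each point is 1 of 21938 genes, with its mean level in PC3 on the x axis (log2(TPM + 1)) and its log2 change with TRIB1 on the y axis. Red points are the 656 genes called higher and blue points the 694 called lower, and the slanted edges at the left are genes near 0 TPM in one of the groups.

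The identity of the cells was read first. STAT3, STAT5A and STAT5B, which PC3 lacks or hardly expresses, were at or under 0.502 TPM in all 4 libraries. The epithelial markers KRT8 and KRT18 were at or above 199 TPM in every library. Of the markers of other cell types, 8 fibroblast genes summed to 60.0 and 71.6 TPM in the controls and 46.3 and 42.6 TPM with TRIB1, nearly all of it COL1A1, with COL1A2 and COL3A1 under 0.27 TPM. LUM, a proteoglycan gene of fibroblasts, went the other way, from 0.456 and 1.26 to 3.60 and 2.93 TPM (adjusted p = 0.0315), and DCN was at 0.286 and 0.263 TPM and 1.15 and 1.06 TPM (adjusted p = 0.0678). The 10 leukocyte genes summed to 23.2 and 26.2 TPM and to 38.4 and 36.6 TPM, mostly CD68, with PTPRC under 0.47 TPM, and 6 endothelial genes to 9.95 to 11.2 TPM, with VWF under 0.04 TPM. Since these are bulk libraries, fewer cells of a kind and less RNA per cell cannot be told apart.

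The added gene was visible in both libraries that should hold it. TRIB1 (ENSG00000173334) measured 45.1 and 50.8 TPM without and 241 and 245 TPM with the TRIB1 virus, a log2 change of 2.32 (SE 0.12, adjusted p = 0.00095, limma). Virus-borne and endogenous TRIB1 transcript cannot be told apart in this table. Among the 10 genes of the Tribbles and COP1 list 2 rose and 1 fell. DDB1, an adaptor of the CUL4 ubiquitin ligases that COP1 works with, rose from 109 and 103 to 137 and 129 TPM (0.32). MAP2K1, which encodes MEK1, fell from 127 and 140 to 92.6 and 97.1 TPM (-0.49). For both genes the groups did not overlap, but the adjusted p passed 0.05 without control library 2 or either TRIB1 library (up to 0.083 for DDB1 and 0.0857 for MAP2K1). COP1 itself was low, at 3.32 and 5.46 TPM and 3.24 and 3.90 TPM, and the groups overlapped (-0.21, adjusted p = 0.542). The paralog TRIB2 was at 29.9 and 32.7 TPM and 19.7 and 17.4 TPM (-0.72, adjusted p = 0.0701) and TRIB3 at 55.7 and 67.1 TPM and 82.9 and 82.0 TPM (0.43, adjusted p = 0.066), both without overlap and short of the threshold. CUL4A, CUL4B, DET1 and MAP2K2 did not pass either. A lack of overlap was seen in 60.2% of all genes measured.

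Of 6 measured C/EBP genes 1 rose. DDIT3, a C/EBP family member of the stress response, went from 35.1 and 36.6 to 86.2 and 78.4 TPM (1.18, SE 0.13, adjusted p = 0.00477). CEBPA was at 1.68 and 2.46 TPM in the controls and 0.795 and 1.03 TPM with TRIB1 (-0.68, adjusted p = 0.0852), and CEBPD at 10.97 and 15.4 TPM and 7.74 and 7.72 TPM (-0.68, adjusted p = 0.0781). CEBPB, the most abundant of them, was at 90.0 and 131 TPM and 135 and 138 TPM (0.33, adjusted p = 0.372). These levels are of transcript, whereas COP1 acts on protein, which was not measured.

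The transcripts of the ETS and AP-1 proteins that COP1 is known to degrade went both ways, with 3 of 8 higher and 3 lower. JUN fell from 78.5 and 96.2 to 45.6 and 45.8 TPM (-0.91, adjusted p = 0.00592). ETV4 fell from 167 and 186 to 107 and 99.1 TPM (-0.77, adjusted p = 0.00771) and ETV5 from 56.7 and 56.7 to 36.7 and 28.3 TPM (-0.80, adjusted p = 0.0184). ETS2 rose from 33.2 and 33.9 to 56.6 and 57.1 TPM (0.74, adjusted p = 0.00318). ETS1 rose by 0.42 and JUNB by 0.51. The adjusted p of ETV4 was 0.0577 without TRIB1 library 2, that of ETV5 0.0725 to 0.0839 without either control or TRIB1 library 2, and that of ETS1 0.0576 to 0.0603 without either TRIB1 library. JUNB passed 0.05 without any 1 of 7 libraries, all but control library 2 (0.074 to 0.175), and without either TRIB1 library 1 gene of the list rose. Without TRIB1 library 2 the list held 1 fall.

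Most CXC chemokines rose. Promoter sequences of 6 of these genes and of IL6 are shown because they hold a common NF-kB motif close to the start site. They come from RefSeq promoters on GRCh38.p14, are written 5′ to 3′ along the gene, and capitals mark matches to GGNNTTTCC, searched on both strands in the 300 bases from 250 before to 50 after the start. The stretches end before the start site.
CXCL8, chr4:73740448-73740516, plus strand: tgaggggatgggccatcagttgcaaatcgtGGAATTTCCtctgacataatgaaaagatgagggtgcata
CXCL1, chr4:73869285-73869378, plus strand: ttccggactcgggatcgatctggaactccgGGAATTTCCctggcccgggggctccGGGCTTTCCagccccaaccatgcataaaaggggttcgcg
CXCL2, chr4:74099210-74099302, minus strand: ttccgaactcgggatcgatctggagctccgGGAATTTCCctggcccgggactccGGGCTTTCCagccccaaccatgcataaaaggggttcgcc
CXCL3, chr4:74038704-74038797, minus strand: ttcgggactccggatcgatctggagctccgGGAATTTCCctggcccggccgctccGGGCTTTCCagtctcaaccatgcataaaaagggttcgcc
CXCL5, chr4:73998729-73998797, minus strand: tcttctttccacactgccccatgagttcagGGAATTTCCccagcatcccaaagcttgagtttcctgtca
CXCL6, chr4:73836559-73836627, plus strand: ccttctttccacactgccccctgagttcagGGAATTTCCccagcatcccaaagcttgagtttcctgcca
IL6, chr7:22727098-22727166, plus strand: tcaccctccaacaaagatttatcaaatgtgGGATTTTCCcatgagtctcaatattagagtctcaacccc
The stretches of CXCL1, CXCL2 and CXCL3 are near copies of each other, as are those of CXCL5 and CXCL6, so these are not independent sequences. Of the 10 measured list members 7 had a promoter in the RefSeq table and 6 of these 7 held the motif, PPBP being the one without a match. Outside the list, LCN2 had no match in the 250 bases before the start, while CCL20 had 1 and TNFAIP3 had 2. Over all 27305 promoters 6.3% held it, over those of the protein-coding genes measured here 6.6%, over those called higher 9.2% and over those called lower 4.6%. A match to these letters is a description of the sequence and not a binding site.

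Of the 10 measured members of the CXC list, 9 ligand genes rose and 1 receptor gene fell, with a median log2 change of 1.60 against -0.041 over all genes. CXCL8 (ENSG00000169429), the ligand of CXCR1 and CXCR2, rose from 416 and 363 to 1861 and 1778 TPM (2.22, SE 0.19, adjusted p = 0.0025). CXCL1 went from 1008 and 1064 to 3355 and 3312 TPM (1.69, SE 0.12, adjusted p = 0.00158). With CXCL1 and CXCL8, the TRIB1 libraries held 2 chemokine transcripts at or above 1778 TPM. CXCL3 went from 134 and 137 to 480 and 482 TPM (1.82), CXCL5 from 170 and 152 to 505 and 504 TPM (1.65), and CXCL2 from 57.4 and 57.6 to 145 and 135 TPM (1.27). Reads of CXCL1, CXCL2 and CXCL3, close paralogs, may have been shared among them. CXCL6 went from 253 and 227 to 694 and 729 TPM (1.56, adjusted p = 0.0222).

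The platelet chemokine genes, which lie in the same cluster on chromosome 4, rose from low levels. PPBP (ENSG00000163736), whose product is cut to a CXCR2 ligand, went from 1.24 and 1.66 to 75.6 and 75.5 TPM (4.97, SE 0.19, adjusted p = 0.000734), the largest protein-coding rise by the rule used. PF4 went from 3.50 and 5.15 to 12.2 and 12.3 TPM (1.34, adjusted p = 0.0187). CXCL16, a membrane-bound chemokine outside that cluster, went from 19.1 and 23.9 to 39.1 and 37.2 TPM (0.81, adjusted p = 0.00801). ACKR3, an atypical receptor that takes up CXCL12, fell from 12.4 and 12.0 to 2.25 and 2.68 TPM (-1.93, adjusted p = 0.0055). The groups did not overlap in these 10 genes, as in 60.2% of all genes. The adjusted p passed 0.05 for CXCL6 without either DU145 control or any of the 4 PC3 libraries (0.0642 to 0.123), for PF4 without control library 1 or either TRIB1 library (0.0701 to 0.102), and for CXCL16 without TRIB1 library 1 (0.0562). The change was higher in PC3 than in DU145 for 9 of the 10 genes, against 5.36% of all genes tested, and the list median in DU145 was -1.08. In the fit of protein-coding genes alone it was higher for 1963 of 14949.

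**Figure D2:**
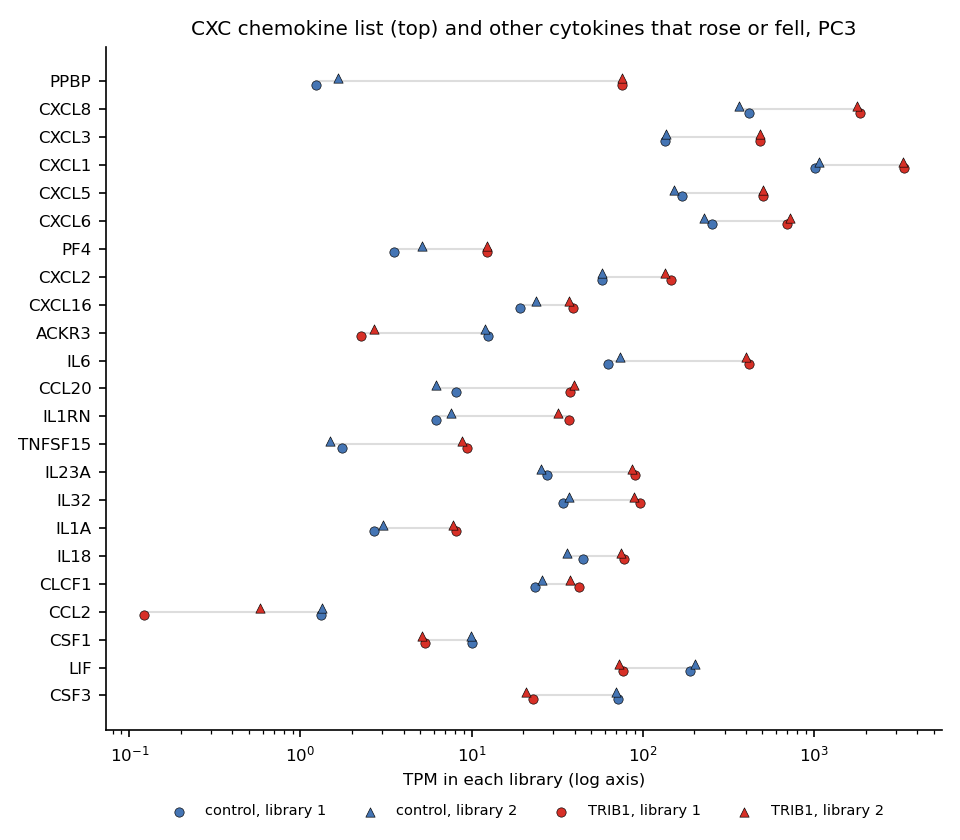
Levels in each PC3 library (TPM, log axis) of the 10 CXC list genes, at the top, and of 13 other cytokine genes that rose or fell. Blue marks are controls, red marks TRIB1, circles library 1 and triangles library 2, and in every line shown the red and blue marks are apart, with PPBP moving farthest.

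Other cytokines rose in 9 of 26 cases and fell in 4, with a median of 0.53. IL6 (ENSG00000136244) went from 62.4 and 73.8 to 419 and 403 TPM (2.58, SE 0.12, adjusted p = 0.000761). CCL20, an attractant for cells with CCR6, went from 8.05 and 6.20 to 37.3 and 39.6 TPM (2.29, adjusted p = 0.00154). IL1RN, the natural antagonist of interleukin 1, went from 6.15 and 7.55 to 36.8 and 31.9 TPM (2.17, adjusted p = 0.00192). For each of the 3 genes the TRIB1 libraries lay at more than 4 times the higher control. TNFSF15 rose by 1.95, IL23A by 1.70, IL32 by 1.35, IL1A by 1.21, IL18 by 0.91 and CLCF1 by 0.67. The falls were the colony stimulating factors CSF3, from 72.0 and 70.0 to 22.9 and 20.8 TPM (-1.66, adjusted p = 0.00167), and CSF1, from 10.1 and 9.92 to 5.36 and 5.14 TPM (-0.82), the IL6 family member LIF, from 189 and 202 to 77.1 and 72.5 TPM (-1.37), and CCL2, from 1.32 and 1.33 to 0.122 and 0.577 TPM. IL6 and LIF, members of the same family, thus lay on opposite sides of the controls.

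Among 20 cytokine receptor genes 6 rose and 3 fell. IL13RA2, a decoy receptor for interleukin 13, went from 1.08 and 1.52 to 30.4 and 29.6 TPM (3.76, SE 0.17, adjusted p = 0.000761), the second largest protein-coding rise. IL1R2, the decoy receptor for interleukin 1, went from 2.05 and 2.30 to 9.89 and 11.9 TPM (1.90, adjusted p = 0.00619). With IL1RN, 2 transcripts whose products block interleukin 1 were higher while IL1A was also higher. Without control library 2 or TRIB1 library 1, 3 receptor genes rose, and without TRIB1 library 2 it was 2. The 3 falls (IL11RA, IL10RB and IFNGR2) numbered 1 without any DU145 library or TRIB1 library 1, and 0 without TRIB1 library 2.

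NF-kB subunits and feedback genes moved less than the chemokines, with 6 of 25 higher, 2 lower and a median of 0.17. TNFAIP3, a deubiquitinase that ends NF-kB signalling, went from 17.6 and 23.6 to 76.4 and 78.3 TPM (1.87, SE 0.14, adjusted p = 0.00174). BIRC3 rose from 21.3 and 21.1 to 37.0 and 34.8 TPM (0.73, adjusted p = 0.00205). ICAM1, an adhesion molecule and usual NF-kB target, fell from 40.0 and 41.7 to 24.2 and 22.8 TPM (-0.77, adjusted p = 0.00279). SOD2 rose by 0.48 and RELB by 0.62, and NFKBIZ fell by 1.02. Their adjusted p passed 0.05 without 3 libraries for SOD2 (control library 2 and both TRIB1 libraries, up to 0.0869), all but control library 2 for RELB (up to 0.173), and all but the DU145 TRIB1 libraries for NFKBIZ (up to 0.166). Only 3 genes of the list rose without either TRIB1 library. For 12 of the 25 genes the change was higher in PC3 than in DU145, against 5.36% of all genes tested. The list median was 0.17 in PC3 and -0.59 in DU145.

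Of 29 measured genes of mucosal defence and mucins 11 rose, 5 fell and 13 did not pass. The elastase inhibitor gene PI3 went from 2107 and 2288 to 6939 and 7277 TPM (1.69, SE 0.17, adjusted p = 0.0039). LCN2, which binds bacterial siderophores, went from 698 and 665 to 2099 and 2043 TPM (1.60, SE 0.08, adjusted p = 0.00095), and the protease inhibitor gene SLPI from 198 and 171 to 588 and 590 TPM (1.67). MUC5AC fell from 70.7 and 79.2 to 6.42 and 6.27 TPM (-3.37, SE 0.13, adjusted p = 0.000734). MUC2 fell from 9.05 and 9.51 to 1.13 and 0.947 TPM (-2.34, adjusted p = 0.00161) and MUC5B from 125 and 156 to 41.4 and 43.4 TPM (-1.70, adjusted p = 0.0102). These 3 mucin genes neighbour each other on chromosome 11, and the noncoding MUC5B-AS1 fell with them, from 59.1 and 106 to 18.3 and 7.23 TPM (-2.67, adjusted p = 0.014). Without a strand setting its reads and those of the mucin on the other strand cannot be told apart. MUC5B passed 0.05 without control library 2 or either TRIB1 library (0.062 to 0.0739), and MUC5B-AS1 without DU145 control library 2, control library 2 or TRIB1 library 2 (0.051 to 0.0736). The list's count of 5 falls was 2 or 3 without any 1 of the 4 PC3 libraries.

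Keratin and junction genes rose more often than they fell. Of 7 simple epithelial keratins 5 rose and 0 fell (median 0.62). KRT8 went from 233 and 236 to 691 and 680 TPM and KRT18, whose listed interval overlaps that of KRT8, from 216 and 199 to 600 and 591 TPM. KRT7, a simple keratin of ducts, went from 527 and 554 to 1502 and 1411 TPM (1.43, SE 0.07, adjusted p = 0.000865). The count of 5 was 3 without TRIB1 library 1. Basal and squamous genes, which normal prostate glands keep in their basal layer or lack, rose in 8 of 11 measured cases with 0 lower and a median of 1.21. The other 9 genes of the list were under 1 TPM in both PC3 groups, KRT5, KRT14 and TP63 among them. The rises thus cover only part of the list. KRT17 went from 2.60 and 3.05 to 26.6 and 28.3 TPM (2.90, SE 0.15, adjusted p = 0.00095). KRT6A went from 8.61 and 10.4 to 39.7 and 37.3 TPM (1.91, adjusted p = 0.0044) and KRT16 from 3.64 and 3.30 to 16.9 and 16.1 TPM (1.97, adjusted p = 0.00205). KRT6A, KRT16 and KRT17 have near copies in the genome, so their levels are uncertain.

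Of 19 tight junction and polarity genes 12 rose and 0 fell (median 0.65). CLDN1 went from 5.66 and 6.09 to 24.8 and 24.4 TPM (1.90, SE 0.09, adjusted p = 0.000761). CRB3, an apical polarity protein gene, went from 21.0 and 18.2 to 72.5 and 64.0 TPM (1.75, SE 0.11, adjusted p = 0.00108). OCLN, the occludin gene, went from 7.81 and 7.18 to 21.3 and 18.8 TPM (1.30, adjusted p = 0.00169). Without TRIB1 library 1 the count of 12 was 7. Of 21 adherens junction and desmosome genes 12 rose and 2 fell (median 0.49). CDH3 went from 27.1 and 22.2 to 87.4 and 89.0 TPM (1.81, adjusted p = 0.00202), CDH1, the E-cadherin gene, from 37.0 and 33.6 to 107 and 101 TPM (1.53, adjusted p = 0.00199), and DSP, the desmoplakin gene, from 10.3 and 9.65 to 24.3 and 23.5 TPM (1.18, adjusted p = 0.00126). P-cadherin (CDH3) and E-cadherin (CDH1) transcripts were both higher in each TRIB1 library than in each control. Without TRIB1 library 1 the adherens rises numbered 8. The 2 falls, DSC2 and DSG2, were lost without either TRIB1 library, and 1 of them was lost without either control or DU145 control library 1. In each of these lists the change was higher in PC3 than in DU145 for 10 genes, against 5.36% of all genes tested. Their medians in DU145 were -0.22 (tight junctions and polarity) and -0.10 (adherens junctions and desmosomes).

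The regulators of the epithelial state rose less uniformly, in 12 of 25 cases with 2 falls (median 0.59). OVOL1 and OVOL2, zinc finger repressors of the mesenchymal programme, went from 3.59 and 3.12 to 14.97 and 13.6 TPM (1.81, adjusted p = 0.00439) and from 8.23 and 9.001 to 31.3 and 23.4 TPM (1.55, adjusted p = 0.00541). GRHL2, which activates junction genes, went from 4.17 and 3.73 to 16.3 and 16.1 TPM (1.80, adjusted p = 0.00278), and the splicing regulator ESRP1 from 32.8 and 33.7 to 103 and 90.8 TPM (1.51, adjusted p = 0.00228). The membrane proteases PRSS8 and ST14, which act together at epithelial surfaces, went from 10.9 and 14.4 to 34.3 and 34.8 TPM (1.40) and from 56.1 and 63.9 to 153 and 150 TPM (1.32). For all 6 genes the lowest TRIB1 library was above 2 times the highest control. RAB25, EHF, GRHL3, CDS1, MAL2 and ELF3 rose as well, by 1.35, 1.19, 1.03, 0.97, 0.81 and 0.40.

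FOXA2, a pioneer factor of endoderm, moved the other way, from 37.0 and 44.5 to 5.08 and 5.66 TPM (-2.71, SE 0.16, adjusted p = 0.000959), and SPDEF fell by 0.62 (adjusted p = 0.0409). FOXA1, a related pioneer factor, did not pass (93.1 and 119 TPM, then 122 and 115 TPM, adjusted p = 0.452). GRHL1, ESRP2, KLF4, KLF5, TFAP2A, TFAP2C, HNF4G, SPINT1 and SPINT2 did not pass. Left-out libraries ended the adjusted p of EHF and RAB25 (control library 2 or either TRIB1 library, up to 0.103), of GRHL3 (either control or TRIB1 library 2, up to 0.0807), of ELF3 (6 libraries, all but the DU145 controls, up to 0.148) and of SPDEF (7 libraries, all but control library 1, up to 0.175). The change of 15 of the 25 genes was higher in PC3 than in DU145, against 5.36% of all genes tested. The list median in DU145 was -0.23.

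Of 13 measured transcription factors of the mesenchymal state 0 rose, 1 fell and 12 did not pass (median -0.02, which became 0.03 with median-of-ratios scaling). With protein-coding genes alone 3 of 13 fell, and with GC adjustment added 4 fell and 1 rose. ZEB1, which represses E-cadherin, was at 10.6 and 7.15 TPM in the controls and 5.97 and 4.91 TPM with TRIB1 (-0.60, adjusted p = 0.0928), and ZEB2 at 1.75 and 2.51 TPM and 0.817 and 0.930 TPM (-0.73, adjusted p = 0.102). SNAI1 was at 2.38 and 4.09 TPM and 3.25 and 2.95 TPM (-0.02), SNAI2 at 21.7 and 19.4 TPM and 15.6 and 15.9 TPM (-0.36, adjusted p = 0.0936), and TWIST1 at 48.6 and 67.4 TPM and 38.8 and 39.7 TPM (-0.53, adjusted p = 0.133). ZEB1, ZEB2, SNAI2 and TWIST1 had both TRIB1 libraries below both controls, SNAI1 did not. The groups did not overlap, in either direction, in 60.2% of all genes measured, and none of these factors passed. The 1 fall, TWIST2 at about 1 TPM (-0.64, adjusted p = 0.0497), was lost without any 1 of the 8 libraries.

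The E-box CACCTG, the letters that ZEB and SNAI factors bind, was searched on both strands in the same promoter windows. The promoter of CRB3 is shown for its 5 matches in the 250 bases before the start, and that of OCLN for its 1. Matches are in capitals. CLDN7, read in the same 250 bases, had no match.
CRB3, chr19:6464021-6464246, plus strand: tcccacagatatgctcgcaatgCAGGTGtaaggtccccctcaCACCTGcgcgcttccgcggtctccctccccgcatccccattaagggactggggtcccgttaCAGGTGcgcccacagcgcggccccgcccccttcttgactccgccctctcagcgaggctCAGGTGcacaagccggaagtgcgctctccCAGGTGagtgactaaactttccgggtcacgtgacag
OCLN, chr5:69492484-69492546, plus strand: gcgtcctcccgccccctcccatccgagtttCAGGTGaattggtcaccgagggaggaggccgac
The motif was in 33.0% of the promoters of genes called higher, in 15.5% of those called lower, in 18.8% of those of the measured protein-coding genes and in 20.6% of all promoters. In the junction lists 5 of 13 and 5 of 12 promoters held it. GRHL motifs (AACCNGTT) were in 1.0% of promoters of genes called higher, 0.9% of those called lower, 1.4% of those of measured protein-coding genes and 1.7% of all. AP-1 motifs (TGANTCA) were in 11.1%, 6.9%, 4.7% and 7.8% of the same sets. C/EBP motifs (TTGCNNA) were in 30.7% of promoters of genes called higher, 21.3% of those called lower and 26.8% of those of measured protein-coding genes. These are shares of sequences with no test.

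Structural genes of the mesenchymal state fell in 11 of 25 cases and rose in 6 (median -0.34). VIM went from 647 and 589 to 122 and 119 TPM (-2.35, SE 0.06, adjusted p = 0.000725). CDH11, a cadherin of osteoblasts and fibroblasts, went from 180 and 162 to 73.9 and 74.4 TPM (-1.20, adjusted p = 0.00325) and the membrane protein gene EMP3 from 105 and 135 to 57.7 and 56.5 TPM (-1.05, adjusted p = 0.00463). CNN3, an actin-binding calponin gene of the same list, rose from 62.4 and 58.0 to 170 and 163 TPM (1.45, SE 0.06, adjusted p = 0.000734). Without either TRIB1 library 7 genes fell and 3 rose.

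**Figure D3:**
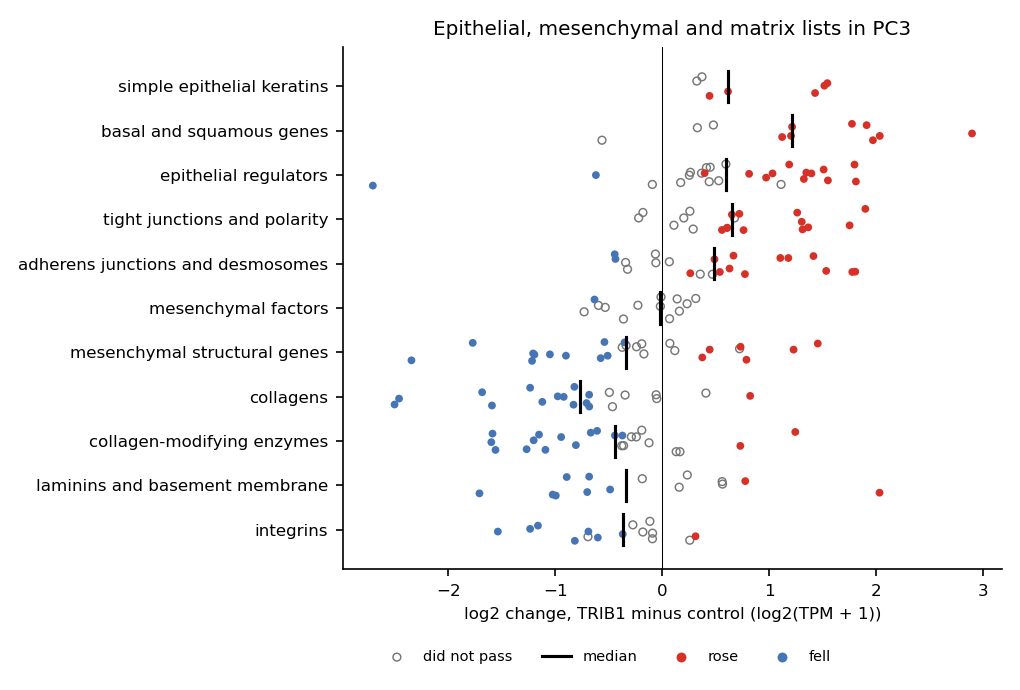
Log2 changes in PC3 of the members of 11 lists, 1 point per gene and 1 row per list, with the list median as a black bar. Filled red points rose, filled blue points fell and open points did not pass: the 5 epithelial rows lie mostly to the right, the mesenchymal factors have 12 of 13 points open, and the matrix rows lie mostly to the left.

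Most collagens and most of the enzymes that process them fell. Of 20 collagens 13 fell and 1 rose, with a median of -0.76. COL6A3 went from 66.7 and 63.5 to 11.9 and 10.1 TPM (-2.46, SE 0.13, adjusted p = 0.00095), and the other chains of collagen VI, COL6A1 and COL6A2, from 1438 and 2652 to 618 and 596 TPM (-1.69, adjusted p = 0.0118) and from 909 and 1053 to 341 and 307 TPM (-1.59, adjusted p = 0.00119). All 3 chains separated the groups, but the controls of COL6A1 lay far apart and its adjusted p passed 0.05 without either TRIB1 library (0.0783 and 0.0836). COL4A1, a basement membrane chain, went from 15.9 and 17.0 to 7.15 and 6.88 TPM (-1.12, adjusted p = 0.00172) and COL18A1 from 47.4 and 62.1 to 23.1 and 21.8 TPM (-1.24, adjusted p = 0.00462).

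Of 23 collagen-modifying enzymes 13 fell and 2 rose (median -0.44). PLOD1, a lysyl hydroxylase gene, went from 252 and 294 to 88.4 and 91.3 TPM (-1.59, SE 0.08, adjusted p = 0.000921), P4HA2, a prolyl hydroxylase gene, from 150 and 147 to 49.2 and 50.4 TPM (-1.56, adjusted p = 0.000761), and LOXL2, a cross-linking oxidase gene, from 140 and 188 to 49.1 and 56.8 TPM (-1.60, adjusted p = 0.00309). These 3 steps act on the same collagen chains inside and outside the cell. MRC2, the endocytic receptor that takes up collagen fragments, fell from 92.4 and 114 to 21.1 and 10.1 TPM (-2.73, adjusted p = 0.00506). The collagen count was 8 and 6 and the enzyme count 7 and 5 without TRIB1 library 1 and TRIB1 library 2. The 1 collagen that rose, COL9A3, lost its adjusted p without either DU145 control or any of the 4 PC3 libraries.

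Laminins and basement membrane genes fell in 7 of 14 cases and rose in 2. LAMA5 went from 1010 and 1226 to 338 and 341 TPM (-1.71, SE 0.13, adjusted p = 0.00158). NPNT, an integrin ligand gene, rose from 5.22 and 5.33 to 24.0 and 25.4 TPM (2.03, adjusted p = 0.000959). Integrins fell in 7 of 15 cases and rose in 1. ITGB4, the hemidesmosome subunit, went from 582 and 758 to 296 and 296 TPM (-1.16, adjusted p = 0.00437), ITGB2, a subunit best known from leukocytes, from 268 and 348 to 125 and 133 TPM (-1.24, adjusted p = 0.00437), and ITGA3 from 498 and 546 to 295 and 296 TPM (-0.82, adjusted p = 0.0021). In these 3 integrin genes the TRIB1 libraries lay closer to each other than the controls did. Without DU145 control library 2 or either TRIB1 library 4 basement membrane genes fell, and without TRIB1 library 2 it was 3 integrins. The 1 integrin rise was lost without any of the 4 PC3 libraries.

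GC content moved with these falls. Across 10903 protein-coding genes of at least 5 TPM the change with TRIB1 fell with transcript GC content (Spearman rho -0.312, across genes, which are not replicates), and control library 2 minus control library 1 rose with it (rho 0.585), whereas TRIB1 library 2 minus library 1 did so by 0.073. Above a GC content of 57.9% 64 genes were called higher and 230 lower, and up to 43.7% the counts were 74 and 19. Median GC was 59.2% for the collagens, 57.4% for the collagen-modifying enzymes, 58.9% for the simple keratins and 50.3% for the protein-coding genes measured. With each library corrected for GC content over protein-coding genes, an alternative chosen after the data were seen, 13 of 20 collagens, 15 of 23 collagen-modifying enzymes and 17 of 24 glycolysis genes fell, and 20 of 24 epithelial regulators rose. Protein-coding genes alone, without the correction, gave 13, 14 and 18 falls and 17 rises. Other counts moved as well. Mitosis falls were 12 in the main fit, 16 with protein-coding genes alone and 22 with the correction added. In the same order ATF4 rises were 7, 11 and 15, NF-kB rises 6, 8 and 10, and interferon rises 6, 9 and 11.

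Proteases and inhibitors of the matrix were mixed, with 8 of 29 higher and 5 lower. SERPINB2, an inhibitor of plasminogen activators, went from 16.9 and 11.8 to 137 and 129 TPM (3.14, SE 0.18, adjusted p = 0.000959). PLAU, an activator that it inhibits, rose from 780 and 685 to 1359 and 1286 TPM (0.85, adjusted p = 0.00316). MMP1 rose from 12.6 and 11.4 to 29.7 and 29.9 TPM (1.24), and the membrane protease gene MMP14 fell from 271 and 273 to 125 and 116 TPM (-1.17, adjusted p = 0.00166). The count of 8 was 3 and 5 without TRIB1 library 1 and TRIB1 library 2, and the count of 5 was 2 without control library 2 or either TRIB1 library and 3 without either DU145 control.

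Glycolysis turns glucose to pyruvate and lactate, and tumour lines run it even with oxygen. Of its 24 genes 18 fell, 1 rose and 5 did not pass (median -0.62). For 13 the change was lower in PC3 than in DU145, against 4.01% of all genes tested. In the fit of protein-coding genes alone it was lower for 1760 of 14949. At glucose uptake SLC2A1, the main glucose carrier gene, did not pass (189 and 246 TPM, then 216 and 198 TPM, -0.06, adjusted p = 0.83). The entry step was divided. HK1, the more abundant hexokinase gene, fell from 165 and 169 to 114 and 107 TPM (-0.60, adjusted p = 0.00456). HK2 did not pass (44.0 and 42.1 TPM, then 41.3 and 39.2 TPM, -0.10, adjusted p = 0.594). The controlling step of phosphofructokinase was lower: PFKP went from 177 and 252 to 68.9 and 72.5 TPM (-1.57, adjusted p = 0.00364) and PFKL from 208 and 281 to 102 and 105 TPM (-1.22, adjusted p = 0.00474), with PFKM, the muscle form, at 63.4 and 65.5 TPM and 79.9 and 69.5 TPM (0.21, adjusted p = 0.218). PFKFB3 and PFKFB4, which make the activator of that enzyme, went from 48.7 and 61.8 to 18.4 and 14.2 TPM (-1.70, adjusted p = 0.00311) and from 57.0 and 59.4 to 17.9 and 15.9 TPM (-1.73, adjusted p = 0.00129).

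The abundant enzymes of the later steps fell as well. PGK1 went from 1633 and 1403 to 813 and 785 TPM (-0.92, adjusted p = 0.00254), ENO1 from 2657 and 2618 to 1471 and 1454 TPM (-0.85, adjusted p = 0.00111) and PKM from 1883 and 1906 to 1072 and 1032 TPM (-0.85, adjusted p = 0.00111). In each gene both TRIB1 libraries lay well below both controls. PGAM1 and GPI fell by 0.54 and 0.44, ALDOC by 1.59 and ENO2 by 1.25. At the lactate step LDHA fell from 1846 and 1581 to 1121 and 1079 TPM (-0.63, adjusted p = 0.00621), while LDHB, the subunit that favours lactate use, rose from 340 and 319 to 434 and 428 TPM (0.39, adjusted p = 0.0166). The lactate exporter gene SLC16A3 fell from 751 and 938 to 295 and 292 TPM (-1.51, adjusted p = 0.00134) and PDK1 from 22.1 and 19.1 to 10.1 and 10.8 TPM (-0.91), while SLC16A1 did not pass (-0.05). ALDOA, TPI1 and GAPDH fell by 0.31, 0.40 and 0.32, and for these and LDHB the adjusted p passed 0.05 without 5 or 6 single libraries, among them both DU145 controls, control library 2 and both TRIB1 libraries (up to 0.214), and for LDHA without TRIB1 library 2 (0.0534). SLC2A3, under 2 TPM, did not pass.

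**Figure D4:**
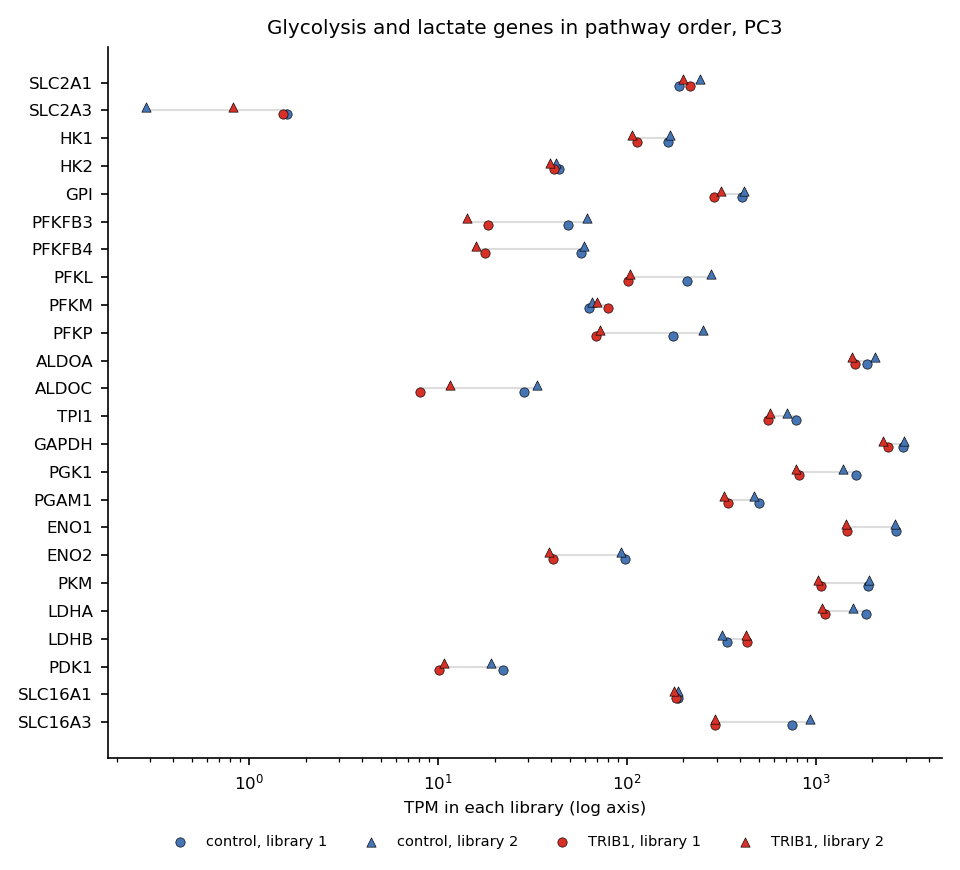
Levels in each PC3 library (TPM, log axis) of 24 glycolysis and lactate genes, from glucose uptake at the top to lactate export at the bottom. Blue marks are controls and red marks TRIB1: the marks mix for SLC2A1, lie side by side for HK2, and are clearly apart, with red to the left, for PFKP, the PFKFB genes, PGK1, ENO1, PKM and SLC16A3, while LDHB has red to the right.

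Hypoxia-inducible genes fell in 15 of 26 cases and rose in 1 (median -0.56). Many glycolysis genes are also targets of the hypoxia factor HIF1, but the lists were kept apart. CA12, a carbonic anhydrase gene, went from 31.4 and 29.5 to 7.38 and 7.64 TPM (-1.89, SE 0.09, adjusted p = 0.000865), BNIP3, a mitophagy receptor gene, from 240 and 204 to 99.8 and 99.5 TPM (-1.14, adjusted p = 0.00209), and FUT11 from 160 and 169 to 75.2 and 72.8 TPM (-1.14, adjusted p = 0.00109). VEGFA, the vessel growth factor gene, went from 365 and 503 to 209 and 199 TPM (-1.07, adjusted p = 0.00934), an adjusted p that became 0.0626 and 0.0723 without the TRIB1 libraries. The count of 15 was 8 without TRIB1 library 2, and the 1 rise, STC2, was lost without either DU145 control or either TRIB1 library. The promoters of LDHA, PGK1 and BNIP3 are shown for the core letters of the hypoxia response element, ACGTG, in capitals on either strand, where CACGTG is a match on both.
LDHA, chr11:18394348-18394524, plus strand: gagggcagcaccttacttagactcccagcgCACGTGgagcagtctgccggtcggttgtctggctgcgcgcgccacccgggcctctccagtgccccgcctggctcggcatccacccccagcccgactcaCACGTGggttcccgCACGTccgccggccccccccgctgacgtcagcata
PGK1, chrX:78104016-78104099, plus strand: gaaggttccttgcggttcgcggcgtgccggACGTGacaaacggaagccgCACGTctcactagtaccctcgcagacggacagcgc
BNIP3, chr10:131982022-131982087, minus strand: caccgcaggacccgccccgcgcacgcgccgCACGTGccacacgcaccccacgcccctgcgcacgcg
The letters were in 12 of 21 promoters of the hypoxia list and 8 of 22 of the glycolysis list, against 21.6% of all promoters, 26.1% of those of measured protein-coding genes and 23.3% of those of genes called lower. ENO1, PKM, PFKFB3, PFKFB4 and SLC16A3 had no match in the 250 bases before the start. For single promoters the 50 bases after it were not read.

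Neighbouring pathways of carbon use were read next. Of 23 genes of the pentose phosphate route, the TCA cycle and lipid synthesis 5 rose and 1 fell, and without either TRIB1 library 0 rose. Without either DU145 TRIB1 library 3 fell, and without control library 1 it was 2. Targets of the antioxidant factor NRF2 were read beside these, and NQO1 and TXNRD1, reductase genes of that list, went from 187 and 184 to 93.0 and 86.1 TPM (-1.04, SE 0.05, adjusted p = 0.000921) and from 617 and 615 to 335 and 319 TPM (-0.91, SE 0.04, adjusted p = 0.000895). Of the 20 NRF2 genes 4 fell and 2 rose. The rises were the ferritin chains FTH1, from 6334 and 5651 to 10190 and 10040 TPM (0.76, adjusted p = 0.00333), and FTL (0.34), the latter with an adjusted p of 0.0565 to 0.0872 without control library 2 or either TRIB1 library. FTH1 has many processed copies in the genome, so its level is uncertain.

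Cholesterol synthesis genes rose in 9 of 26 cases and fell in 2 (median 0.20). HMGCS1, an early step under the control of SREBP2, went from 15.4 and 13.95 to 34.9 and 33.6 TPM (1.17, SE 0.09, adjusted p = 0.00192) and the sterol carrier gene STARD4 from 3.46 and 3.10 to 10.7 and 8.86 TPM (1.33, adjusted p = 0.00333). Without TRIB1 library 1 and TRIB1 library 2 the count was 4 and 3, and the 2 falls were 0 without either and 1 without either DU145 control. Of 25 genes of the ATF4 stress response 7 rose and 1 fell. ATF3, a stress factor that is also an early gene of ERK signalling, went from 25.2 and 26.3 to 97.8 and 92.2 TPM (1.84, SE 0.08, adjusted p = 0.000761), beside DDIT3 above. SLC3A2, a chain of the cystine and leucine carriers, rose from 171 and 178 to 292 and 288 TPM (0.74). The count was 4 without either TRIB1 library, and the 1 fall (PSPH) was lost without either DU145 TRIB1 library or any of the 4 PC3 libraries. Chaperones of the endoplasmic reticulum did not share these rises (1 of 17 rose and 3 fell), and PDIA4 fell from 210 and 201 to 126 and 125 TPM (-0.71, adjusted p = 0.00141). The chaperone falls numbered 1 without either TRIB1 library, and the rise was lost without any PC3 library.

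Cytosolic ribosomal protein genes rose in 32 of 53 cases, with 0 lower and a median of 0.29. The steps were small and 1 gene was called. RPS20 went from 689 and 647 to 1365 and 1340 TPM (1.02, SE 0.05, adjusted p = 0.000761), RPL5 from 701 and 665 to 1287 and 1271 TPM (0.90) and RPS12 from 1215 and 1137 to 1888 and 1854 TPM (0.67). Leaving out a DU145 control gave 18 rises, and the number was 13 and 12 without TRIB1 library 1 and TRIB1 library 2. Ribosomal protein genes have many processed copies, between which reads may have been split.

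Of 41 genes of mitosis and DNA replication 12 fell and 3 rose (median -0.23). BUB1B, a spindle checkpoint gene, went from 71.2 and 76.2 to 38.4 and 42.7 TPM (-0.85, adjusted p = 0.00621) and TYMS, which makes thymidylate, from 179 and 152 to 95.7 and 91.1 TPM (-0.81, adjusted p = 0.00423). CCNE1, the cyclin of entry into S phase, rose from 5.36 and 6.07 to 12.9 and 11.7 TPM (0.99, adjusted p = 0.00602). Only 5 or 6 of the 12 falls were counted when a DU145 control, control library 2 or a TRIB1 library was left out, and 1 rise when a TRIB1 library was. The inhibitors of the cell cycle were divided: CDKN1A rose from 55.7 and 60.5 to 115 and 118 TPM (0.99, SE 0.07, adjusted p = 0.00134), and CDKN2C fell from 33.0 and 35.7 to 14.1 and 12.5 TPM (-1.31, adjusted p = 0.00223). CDKN2A and CDKN2B, neighbours on chromosome 9, fell by 0.69 and 0.79. PHLDA3, an inhibitor of AKT signalling, rose from 97.4 and 126 to 275 and 288 TPM (1.34, adjusted p = 0.00282).

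Of 23 ERK genes 4 rose and 4 fell, and of 14 genes of the EGF family 3 rose and 2 fell. SPRY4, which is induced by ERK and restrains it, went from 52.2 and 51.9 to 16.3 and 15.7 TPM (-1.64, SE 0.09, adjusted p = 0.000959), SPRY1 from 46.1 and 49.2 to 24.95 and 25.7 TPM (-0.89) and ERRFI1, an inhibitor of the EGF receptor, from 348 and 354 to 166 and 171 TPM (-1.05, SE 0.04, adjusted p = 0.000761). AREG, an EGF receptor ligand gene, went from 52.99 and 49.1 to 186 and 182 TPM (1.83, SE 0.13, adjusted p = 0.00142) and its neighbour EPGN from 53.8 and 52.0 to 206 and 189 TPM (1.88, adjusted p = 0.00915). ERBB3, a receptor of the family, rose from 12.2 and 12.4 to 23.0 and 24.4 TPM (0.90), and NRG2, a ligand for it, fell from 7.50 and 9.40 to 2.21 and 1.73 TPM (-1.67, adjusted p = 0.0038). EPGN passed 0.05 without control library 2 or either TRIB1 library (up to 0.071), and 2 ERK genes rose without control library 1 or either TRIB1 library.

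In the TGF-beta and BMP family 7 of 29 genes rose and 10 fell. BMP2 went from 1.43 and 1.52 to 9.96 and 10.1 TPM (2.15, SE 0.16, adjusted p = 0.00169), INHBA, the activin subunit, from 101 and 101 to 273 and 263 TPM (1.40, adjusted p = 0.00282) and TGFB2 from 22.8 and 20.1 to 58.1 and 57.8 TPM (1.40, adjusted p = 0.00185). LTBP1 and LTBP4, which store latent TGF-beta in the matrix, fell from 109 and 103 to 34.8 and 30.6 TPM (-1.66, adjusted p = 0.000959) and from 81.2 and 87.7 to 33.1 and 29.8 TPM (-1.40, adjusted p = 0.000959). For these 5 genes both TRIB1 libraries lay on 1 side of both controls. In the Notch and Wnt list 8 of 31 rose and 8 fell: the ligand genes WNT4, WNT9A and JAG2 rose by 1.67, 1.67 and 1.44 and the receptor genes FZD1 and FZD8 fell by 1.31 and 1.24. Of 18 YAP targets 6 rose and 3 fell, led by ANKRD1, from 0.529 and 0.520 to 9.78 and 7.58 TPM (2.66), with CCN2 lower (-0.79) and the coactivator gene WWTR1 lower, from 111 and 137 to 54.8 and 52.5 TPM (-1.19, adjusted p = 0.00235). The counts of 8 Notch and Wnt and 6 YAP rises were 5 and 3 without TRIB1 library 1, and the 8 Notch and Wnt falls were 3 without either TRIB1 library and 5 without any 1 of the 4 controls of both lines.

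The largest falls came from genes of several kinds. APOBEC3G (ENSG00000239713), a cytidine deaminase that restricts retroviruses, went from 55.7 and 54.6 to 3.68 and 3.90 TPM (-3.55, SE 0.11, adjusted p = 0.000725). MSMP, a secreted microseminoprotein and ligand of CCR2 that PC3 is known to make, went from 3329 and 2948 to 392 and 400 TPM (-2.98, SE 0.17, adjusted p = 0.000959). TNFRSF6B, a decoy receptor for FAS ligand whose gene lies directly behind RTEL1 with shared read-through transcripts, went from 33.9 and 36.6 to 4.03 and 2.59 TPM (-3.09, adjusted p = 0.00112). NTSR1, the neurotensin receptor gene, went from 23.0 and 30.9 to 2.79 and 2.56 TPM (-2.91), and the LIM protein gene PDLIM4 from 93.6 and 106 to 11.1 and 13.6 TPM (-2.92). DPF3, a chromatin remodelling subunit gene, fell by 2.95, with an adjusted p of 0.0596 and 0.0546 without the TRIB1 libraries, and PPFIA4, ZNF469, DGKG, LRRC38 and COL5A1 by 2.67, 2.55, 2.52, 2.51 and 2.50. Among the largest rises not yet named were KRTAP2-3, from 3.87 and 3.20 to 39.1 and 39.4 TPM (3.15), C1orf116 from 6.87 and 6.44 to 63.2 and 57.7 TPM (3.004), RGS4, which shortens G protein signals, from 1.35 and 2.38 to 21.5 and 19.1 TPM (2.92), and BEX1, FER1L6 and CST6 (2.63, 2.51 and 2.43). FAM25A was listed at 0 in both controls and at 8.81 and 9.61 TPM with TRIB1. S100P rose by 2.42 and TAFA2 by 2.32, with adjusted p-values up to 0.0953 and 0.059 when TRIB1 libraries were left out, for S100P also without control library 2 (0.0797) or DU145 control library 2 (0.0507).

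Noncoding genes took part as well. MIR205HG, the host gene of a microRNA of basal epithelium, went from 10.97 and 7.98 to 33.3 and 49.7 TPM (2.01, SE 0.24, adjusted p = 0.00552), and MIR137HG from 3.002 and 2.84 to 12.3 and 13.4 TPM (1.82, adjusted p = 0.00261). LUCAT1 fell from 10.7 and 10.01 to 1.62 and 0.804 TPM (-2.39, adjusted p = 0.00161), TSPEAR-AS1 from 8.74 and 12.2 to 0.100 and 0.126 TPM (-3.35, adjusted p = 0.00211) and SLCO4A1-AS1 from 25.03 and 26.4 to 6.28 and 6.91 TPM (-1.81, adjusted p = 0.00155). CBR4-DT was listed at 0 in both controls and at 8.53 and 5.51 TPM with TRIB1. Reads of the antisense genes and of their partners on the other strand cannot be told apart without a strand setting.

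The change with TRIB1 was set against that in DU145 in the same fit. It was higher in PC3 for 5.36% of the genes tested and lower for 4.01%. The genes called in both lines numbered 55. That count takes either direction in each line, so it holds genes such as IL6 and is not a count of shared changes. Among the genes named 28 passed in opposite directions, leaving aside genes whose results are not reported here. The share over all genes was not counted, so this number describes the genes named and has no background beside it. IL6 changed by 2.58 in PC3 and -2.17 in DU145 (adjusted p of the difference 0.000931, limma), LCN2 by 1.60 and -3.80 (0.000211), and CXCL1 by 1.69 and -2.79 (0.00119). Vimentin (VIM) moved by -2.35 and 0.41 (0.000834). The labels give no batch for either line.

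**Figure D5:**
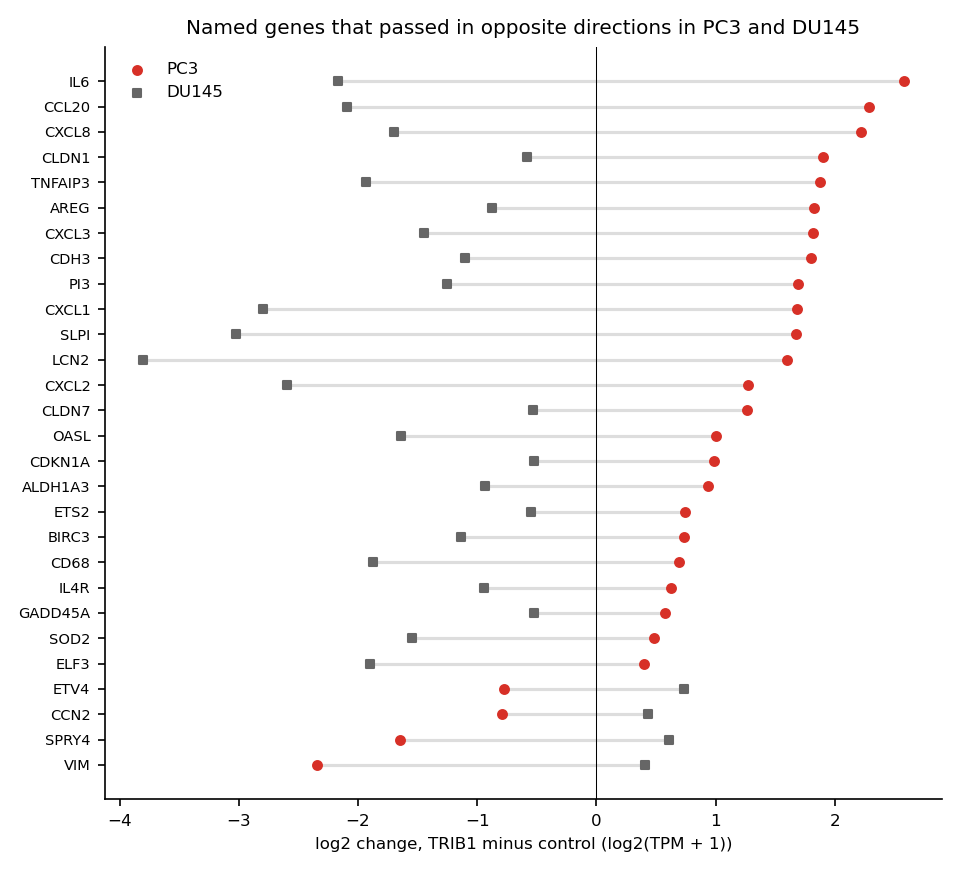
Log2 change with TRIB1 of the 28 named genes that passed in opposite directions, with PC3 as red circles and DU145 as grey squares joined by a line. Chemokine, mucosal defence and NF-kB feedback genes lie to the right of 0 in PC3 and to the left in DU145, and VIM, SPRY4, CCN2 and ETV4 the other way round.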

How the data were processed

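The authors deposited TPM values per gene for 8 libraries, 2 in each of 4 groups; tools listed by the submitters' processing notes, with no role stated, are edgeR, DESeq, HTSeq and TopHat2 2.0.14, with the build hg38, and how TPM was made is not given in the sources used here. Counts and depth are unknown, so no count test or interval was possible. Gene intervals in the table share a start with GENCODE 29 for 365 of 52338 IDs, so their build is taken as unknown and none is printed. From TPM, log2(TPM + 1) was tested with limma 3.58.1 in R 4.3.3 (4 group means, 4 residual and 1.89 prior degrees of freedom, mean-variance trend) over 25982 genes with a group mean of at least 1 TPM, with Benjamini-Hochberg adjustment. The labels do not say that replicates were separate cultures, and the spread behind each p-value is that of these libraries alone and may be technical. On simulated data, with 100 genes changed at each size, the test recovered 83% of changes of 1.5 and 91% of changes of 3 (log2). It called 9 of 25782 unchanged genes there. In the real libraries 1350 genes were called, and control library 2 minus control library 1 rose with GC content (rho 0.585, protein-coding genes). Whether the simulated rates hold under such conditions was not tested, so they give no error rate for the calls made here.

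The members and gene lists were chosen with earlier results of these data known. Named genes were TRIB1, COP1 and C/EBP genes, the 15 largest called protein-coding changes per direction, and up to 6 members of each list of at least 5 TPM, largest change first, with whole lists for those described in full. CLCF1, CSF1, IL18, IL1A, IL32, LIF, CCL2 and genes named as the only members of a count of 3 or fewer were added after their values were seen. Promoters are RefSeq, GRCh38.p14. Paralogs, overlapping genes and antisense genes are uncertain, since the counting of shared reads is not known. The 2 controls shared a correlation of 0.9567 over genes and the 2 TRIB1 libraries 0.957. Genes under 150 bases took 2.753% of TPM in control library 1 and 0.946% to 1.927% in the other 3 PC3 libraries. Alternatives covered scaling, pseudocount, filters, a replicate block and leaving out each library. Results for some genes, line markers among them, are not reported here, although counts over lists include them.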

Additional observations from a re-analysis of the deposited data

Results flagged for a closer look

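For 28 named genes the change with TRIB1 passed in opposite directions in PC3 and DU145, and the difference itself passed (interaction in the same limma fit). Values are log2, PC3 minus DU145. Among cytokine genes these were IL6 (4.748), CXCL1 (4.479), CCL20 (4.380), CXCL8 (3.922), CXCL2 (3.870) and CXCL3 (3.267), with the receptor gene IL4R (1.572). NF-kB, interferon and mucosal defence genes were TNFAIP3 (3.807), BIRC3 (1.868), SOD2 (2.025), OASL (2.641), PI3 (2.945), SLPI (4.698) and LCN2 (5.405). Epithelial and matrix genes were CLDN1 (2.484), CLDN7 (1.795), CDH3 (2.905), ELF3 (2.296) and VIM (-2.754). Growth control genes were ETS2 (1.292), ETV4 (-1.510), CDKN1A (1.514), GADD45A (1.1), SPRY4 (-2.258), AREG (2.707) and CCN2 (-1.220). The others were ALDH1A3 (1.871) and CD68 (2.568). With a block for replicate number the differences past the threshold numbered 74 over all genes, against 2434 without. The PC3 change lost its adjusted p below 0.05 when 1 library was left out for 7 of these genes: ELF3 (up to 0.148), CD68 (0.105), IL4R (0.096), SOD2 (0.0869), GADD45A (0.0729), ALDH1A3 (0.0621) and ETV4 (0.0577). Each lost it without TRIB1 library 2, and all but ETV4 without TRIB1 library 1. SOD2, IL4R and ELF3 lost it also without control library 2, CD68 and ELF3 without control library 1, IL4R without DU145 control library 2 and ELF3 without either DU145 TRIB1 library. The DU145 change of the 28 genes was not read with libraries left out, although an opposite direction needs it to hold too.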

How the results depend on the processing

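No named gene changed direction past the threshold under the alternatives run, but the median of 12 of 48 lists changed sign under at least 1 of them, and the balance of called genes turned. Called genes numbered 1350 (656 higher, 694 lower). Median-of-ratios scaling gave 759 higher and 646 lower. A pseudocount of 5 gave 496 (227 higher, 269 lower), and GC adjustment of protein-coding genes, chosen after the data were seen, gave 888 (507 higher, 381 lower). Leaving out each library in turn gave 1158 to 1598 called genes, 566 to 740 higher and 445 to 960 lower. A block for replicate number gave 833 (389 higher, 444 lower), of which 804 were called without it. The labels do not say that numbers pair the libraries, and same-numbered libraries did not deviate together (r = -0.0103 in PC3 and -0.0415 in DU145). Genes whose change differed between the lines numbered 2434, against 74 with the block, 3723 over protein-coding genes alone, 4197 with GC adjustment and 1275 to 2916 with a library left out. Of the other values, 1534 list counts stayed within 1.5 times and 386 did not, and of the named genes' alternative values 5859 stayed on their side of the threshold, 532 fell short of it and 64 newly passed. The causes were not tested. Depth is unknown, so the precision of low values is too.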

Other observations

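Interferon-stimulated genes were divided. Of 41 measured 6 rose and 6 fell. For 22 the change was higher in PC3 than in DU145, against 5.36% of all genes tested. The list median was 0.12 in PC3 and -0.89 in DU145, so the lower values in DU145 make up most of that difference. IFI27 went from 85.7 and 89.6 to 16.5 and 17.8 TPM (-2.29, adjusted p = 0.00095, limma) and IFI6 from 200.9 and 204 to 64.1 and 65.0 TPM (-1.63), whereas USP18, which ends interferon receptor signalling, went from 6.04 and 6.52 to 12.99 and 12.9 TPM (0.94). The 6 rises were 2 and 3 without TRIB1 library 1 and TRIB1 library 2. In antigen presentation 0 of 23 genes rose and 6 fell, with TAPBP, the tapasin gene, from 93.2 and 142 to 54.1 and 54.9 TPM (-1.06). These falls numbered 1 without either DU145 control or either TRIB1 library.

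Of 14 prostate lineage genes 3 rose and 3 fell. HOXB13, a homeobox gene of the prostate, fell from 52.8 and 56.2 to 23.4 and 22.4 TPM (-1.22, adjusted p = 0.00279), and STEAP4, a metalloreductase gene, rose from 1.13 and 0.722 to 7.25 and 6.67 TPM (2.05). The rises numbered 1 without TRIB1 library 2 and the falls 1 without either TRIB1 library. NES, an intermediate filament gene of progenitor cells, fell from 58.2 and 68.6 to 13.5 and 14.3 TPM (-2.11, adjusted p = 0.000959), and BMI1, a Polycomb subunit gene, rose from 68.2 and 68.2 to 174 and 164 TPM (1.30, adjusted p = 0.000979).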
